A study of Trachemys scripta with 24 samples.

Results

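The recovery interval after gonadectomy was described in plasma of female pond sliders (Trachemys scripta) by setting the libraries at 36 h post-surgery (T2) against those at 2.5 h post-surgery (T1). Libraries were chosen by the time point in their labels, which gave 8 at T1 and 8 at T2, 16 of the 24 in the series. The other 8 libraries were taken 24 h pre-surgery (T0) and are given beside the others as the level before surgery. Adult, clinically healthy females had their ovaries removed through an endoscope-assisted opening in front of the hind limb, and small RNA of their plasma was sequenced. All animals of T1 and T2 had therefore had the same injectable anesthesia (dexmedetomidine, ketamine, midazolam and alfaxalone), ventilation with oxygen, and atipamezole and flumazenil to end it, as well as the surgery itself. No group had anesthesia without surgery, so the effects of anesthesia, surgery, fasting and repeated blood sampling cannot be told apart. The labels do not say which turtle gave which library, so libraries of the same turtle were not paired.

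MicroRNAs (miRNAs) are short RNAs that lower the output of the mRNAs they pair with. Each is cut from a hairpin precursor, and its 5p or 3p name tells which side of the hairpin it came from. Plasma carries miRNAs in vesicles, lipoproteins and protein complexes that blood cells, vessel wall, liver and other organs release, also when cells are damaged. Some miRNA families are made mainly by one kind of tissue, such as mir-122 by hepatocytes, mir-200 and mir-203 by epithelia, mir-1 and mir-133 by striated muscle, mir-451 by red cells and mir-223 by myeloid cells, knowledge that comes mostly from mammals, fish and chicken. Their plasma level is then read as a trace of that tissue. In these data, release by fewer cells and less RNA per cell cannot be told apart, and each level is relative to the other miRNA counts of its library, not a concentration.

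The deposited values were whole counts of reads on mature miRNA entries, and the entries of the painted turtle Chrysemys picta (prefix cpi), the closest species mapped to, were used here, each once. All 528 cpi entries had a count, and 198 passed the filter on low counts and were tested. Libraries held between 34519 and 227789 cpi counts at T1 (median 125343) and between 5837 and 515184 at T2 (median 106218). The log10 total at T1 averaged 5.03 ± 0.297 (SD, n = 8) and that at T2 4.98 ± 0.588, a difference of -0.06 that was smaller than the spread (two-sided exact permutation test, p = 0.829). T2 replicate t39 had the lowest total, and 1 count there was worth 135.6 CPM (counts scaled by the library total and the TMM factor named below). A value of 0 in that library allows a level of up to 406.7 CPM (3 counts, counting error only), so that 0 there says little about entries of low level. Levels below are CPM over the tested entries after edgeR's TMM scaling. They are not shares of a library, since their sum over all cpi entries ranged from 800378 to 1442030 CPM at T1. Log2 fold changes are T2 against T1 with their standard errors (SE), so that a negative value means a lower level at 36 h.

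The arm names are those of the deposited table and need care. Of the 528 cpi entries, 12 carry a miRBase tag and 516 do not. Among the latter, the arm that holds the counts is often not the one that dominates in other vertebrates: the table has 217744 counts on cpi-mir-122-3p and 14 on cpi-mir-122-5p, and 16041 on cpi-mir-206-5p against 1 on cpi-mir-206-3p. No sequences of these entries were in the files used here, and which strand each name stands for was not tested. Entries of gene copies, such as cpi-mir-194-1-3p and cpi-mir-194-2-3p, had nearly the same counts in many cases and are not independent.

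Between 2.5 h and 36 h, no miRNA passed the limits, which were 0.1 for the adjusted p and 1 for the size of the log2 fold change. By edgeR's quasi-likelihood test, 0 of 198 entries (0%) were called, and the smallest adjusted p was 0.759. DESeq2 also called 0. At an unadjusted p of at most 0.05 with the same fold limit, edgeR gave 7 entries that were lower at T2 (3.54% of those tested) and 1 that was higher (0.505%), and DESeq2, run on all 528 entries, gave 16. At that p with any fold there were 10 entries (5.05%). The values below are therefore a description of levels and their spread.

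More entries had a negative than a positive log2 fold change, 63.1% of the 198 against 73 entries (36.9%), and the median was -0.13. This excess depended on the scaling, since 53.5% were negative without TMM and 56.6% with DESeq2 size factors. It also depended on the libraries and entries fitted. A TMM fit of the 16 postoperative libraries alone tested 176 entries, of which 52.8% were negative. In 0 entries were the 8 libraries of T2 wholly apart from those of T1 (0%). The T1 median was above all 8 T2 libraries in 5 entries (2.53%), namely cpi-mir-187-5p, the 3 entries cpi-mir-204-1-3p, cpi-mir-204-2-3p and cpi-mir-204-3-3p, and cpi-mir-26-3-5p. For cpi-mir-187-5p (T1 median 237 CPM) and cpi-mir-26-3-5p (130.1 CPM), T2 replicate t39 counts as below only through 0 counts. These allow up to 406.7 CPM, so that library cannot be placed. It was below all 8 in 1 entry (0.505%), cpi-mir-142-1-3p, a leukocyte miRNA.

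**Figure D1:**
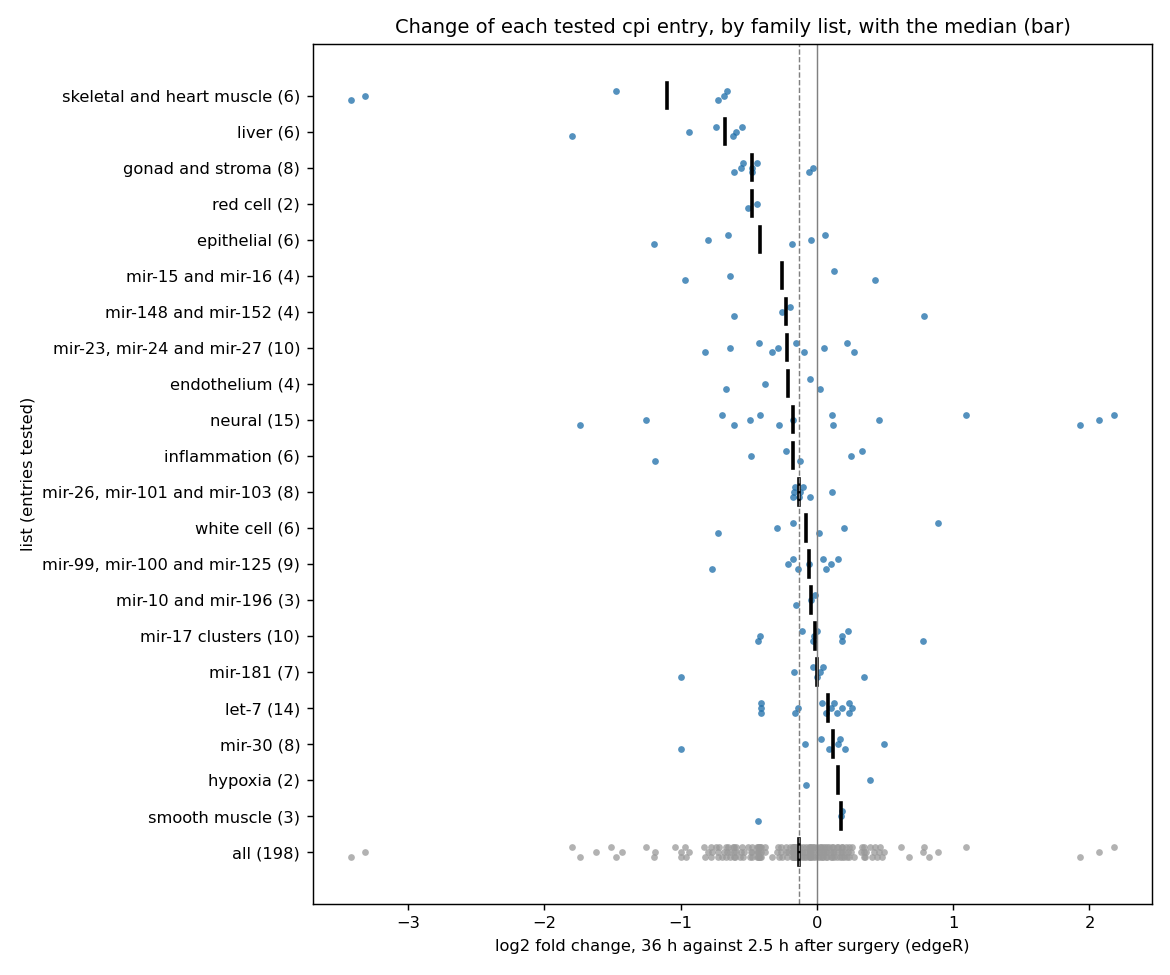
Log2 fold change of each tested cpi entry at 36 h against 2.5 h post-surgery (x axis, edgeR), with a row for every family list that had more than 1 tested entry and the number tested in parentheses; bars are medians, the solid line is 0 and the dashed line the median of all 198 entries (-0.13). The muscle (-1.10) and liver (-0.68) lists have the lowest medians, and most other lists lie close to the dashed line.

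The liver list comprises mir-122, the most abundant miRNA of hepatocytes, and mir-192, mir-194 and mir-215, which are made in liver and also in gut and kidney epithelium. Of its 10 entries, 6 were tested, and 6 of 6 had a negative log2 fold change, against 63.1% of all tested entries. The median was -0.68, against -0.13 for all. With mir-122 left out it was -0.61. The 4 untested entries held 35 counts at T1 and 31 at T2.

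cpi-mir-122-3p ranged from 8191 to 400860 CPM at T1 (median 55458) and from 5907 to 125500 CPM at T2 (median 21957). At T0 the median was 26955 CPM and the range 11352 to 290597 CPM, the highest in T0 replicate t40. The median was thus 2.53 times higher at 2.5 h than at 36 h, and 6 of 8 T2 libraries lay below the T1 median, but the ranges overlapped widely. The log2 fold change was -1.79 (SE 0.80, unadjusted p = 0.0331, adjusted p = 0.759 by edgeR's quasi-likelihood test). T1 replicates t32 and t50 were the highest, with 400860 and 355624 CPM. The same 2 libraries had the lowest TMM factors (0.696 and 0.724). They also had the largest share of counts on their 5 leading entries (68.6% and 67.6%). The part of this in the difference was not tested by itself. Other fits, apart from those leaving out 1 library, gave log2 fold changes between -1.85 and -1.46, with no TMM and DESeq2 size factors among them. Without T1 replicate t32 the log2 fold change was -1.35, and without T2 replicate t42, the highest at T2, it was -2.28.

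The other liver entries differed less and in the same direction. cpi-mir-192-5p had 297 CPM at T1 (median, range 73.0 to 699) and 152.1 at T2 (0 to 336), with 7 of 8 T2 libraries below the T1 median and a log2 fold change of -0.94 (SE 0.47). Among the 7 is T2 replicate t39, whose 0 counts allow up to 406.7 CPM. cpi-mir-215-3p had a median of 1427 CPM at T1 (480 to 2686) and 738 at T2 (401 to 1898), again with 7 of 8 libraries below, and -0.74 (SE 0.38). For entries in which at least 7 of 8 T2 libraries were below the T1 median, the background was 11.6% of those tested. cpi-mir-192-3p, the more abundant arm, had medians of 4910 and 4007 CPM, cpi-mir-194-1-3p 3398 and 2512 CPM, and cpi-mir-194-2-3p 3420 and 2378 CPM. Their log2 fold changes were -0.61 (SE 0.41), -0.59 (SE 0.29) and -0.55 (SE 0.31), with 5 of 8 T2 libraries below the T1 median in each. Without T1 replicate t53, cpi-mir-192-3p had -0.27 and cpi-mir-194-2-3p -0.35. mir-194-1 and mir-194-2 are gene copies with nearly the same counts, so these are not separate observations.

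Summed over the list, the liver level ranged from 17486 to 414488 CPM at T1 (median 74221) and from 16983 to 131693 CPM at T2 (median 38630). At T0 the sum ranged from 28530 to 299102 CPM (median 39833), so that a high level was also found in a library before surgery. cpi-mir-122-3p made up 86.9% of the sum. Without mir-122 the medians were 13043 CPM before surgery, 13076 CPM at 2.5 h and 10027 CPM at 36 h, so that the high median of the sum at 2.5 h came from mir-122. The list median stayed negative in each of the 27 other fits, between -0.84 and -0.51.

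**Figure D2:**
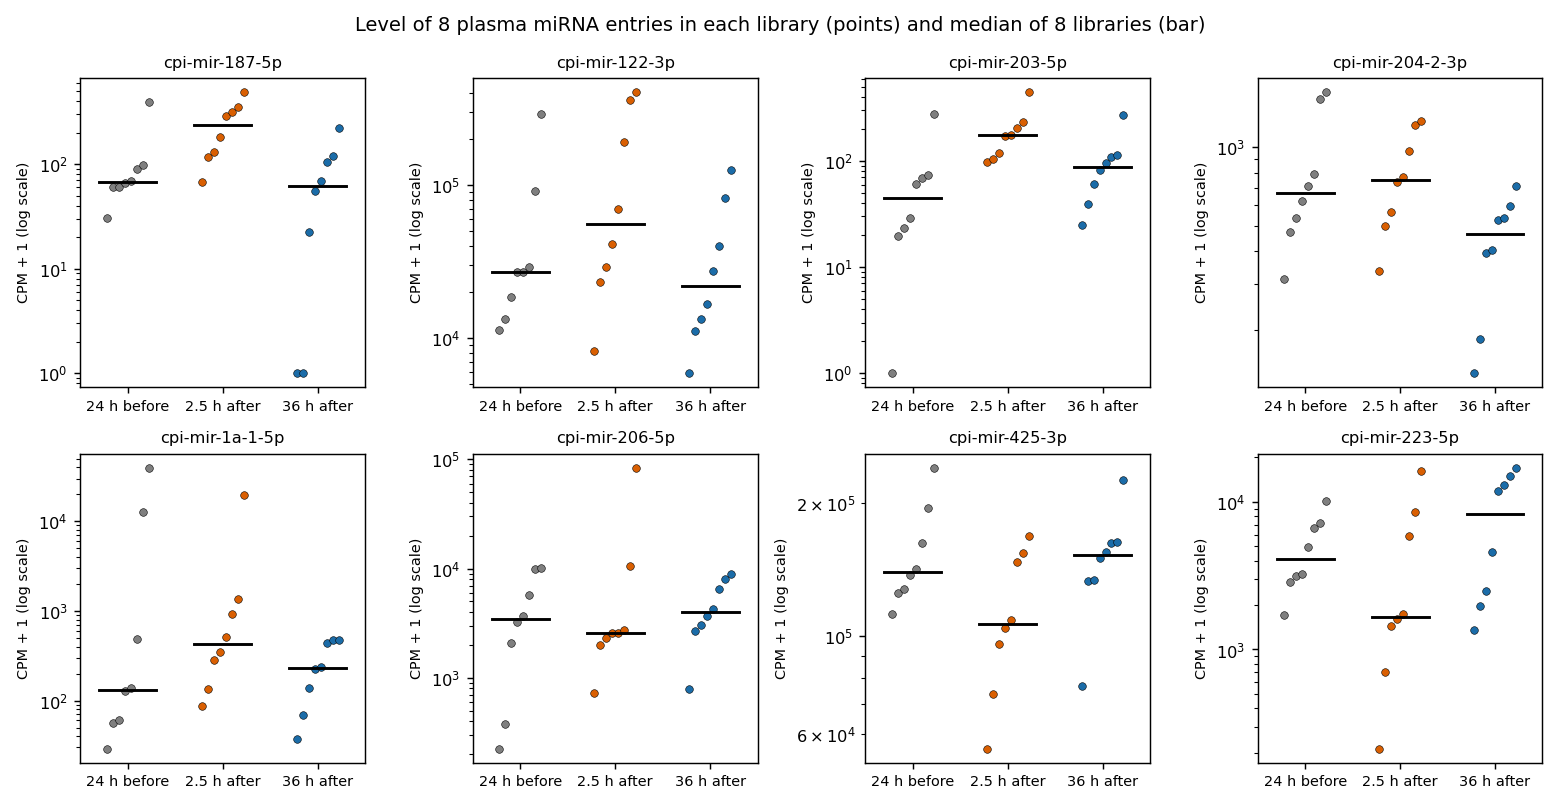
Level of 8 miRNA entries in each library (points, CPM + 1 on a log axis) 24 h before surgery and 2.5 h or 36 h after it, with the median of 8 libraries as a bar. All 8 libraries at 36 h lie below the 2.5 h median for cpi-mir-187-5p and cpi-mir-204-2-3p. For cpi-mir-187-5p these include T2 replicate t39, whose 0 counts allow up to 406.7 CPM. A single library sets the top of the 2.5 h range for cpi-mir-1a-1-5p and cpi-mir-206-5p, and cpi-mir-1a-1-5p reached higher levels before surgery.

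The epithelial list holds the mir-200 family (mir-200a, mir-200b and mir-429), which keeps cells in the epithelial state, mir-203 and mir-205 of skin and other stratified epithelia, and the mir-183 cluster (mir-183, mir-182 and mir-96) of sensory epithelia. Of its 18 entries 6 were tested, of which 5 had a negative log2 fold change and 1 a positive one. Over all tested entries 63.1% were negative. The median of the list was -0.42. That median was less stable than the one of the liver list. It was -0.10 without T2 replicate t36 and -0.07 in the fit of the 16 postoperative libraries, close to the median of all entries there (-0.02).

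cpi-mir-203-5p, from a miRNA that drives keratinocytes to differentiate in mammals, had 96.02 to 443 CPM at T1 (median 174) and 23.7 to 271 CPM at T2 (median 87.5). The level at T0 was 44.2 CPM (median), and 7 of 8 T2 libraries were below the T1 median. Its log2 fold change of -1.19 (SE 0.57, unadjusted p = 0.0461, adjusted p = 0.759 by edgeR's quasi-likelihood test) was between -1.30 and -0.95 with each library left out in turn. These levels rest on 165 counts over the T1 libraries and 93 over those at T2. The other arm, cpi-mir-203-3p, was not tested, and had 24 counts at T1 and 10 at T2.

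In the mir-200 family the 3p arms had lower log2 fold changes than the 5p arms, by about their standard errors, and the difference between arms was not tested. cpi-mir-200a-3p had medians of 81.2 CPM at T1 and 33.6 at T2 with a log2 fold change of -0.80 (SE 0.65), and cpi-mir-200b-3p had 141.5 and 86.3 CPM with -0.66 (SE 0.47, and -0.35 without T1 replicate t32). The more abundant arms had values near 0. cpi-mir-200a-5p had medians of 384 and 465 CPM and a log2 fold change of -0.04 (SE 0.50), and cpi-mir-200b-5p had 901 and 941 CPM and 0.06 (SE 0.42). The sign of both 5p values changed with the library left out. cpi-mir-205a-3p, the most abundant of the mir-205 entries, had 639 CPM at T1 and 573 at T2 (medians, log2 fold change -0.18, SE 0.32), both under its T0 median of 998 CPM.

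The summed epithelial level was 2435 CPM at T1 (median, 2047 to 5343) and 2407 CPM at T2 (1306 to 4723), and 4 of 8 T2 libraries lay below the T1 median. At T0 it was 2565 CPM. The lower values of cpi-mir-203-5p and of the mir-200 3p arms therefore did not show in the sum, which cpi-mir-200b-5p leads with 38.7%. The 12 untested entries of the list, among them all of the mir-183 cluster, held 243 counts at T1 and 179 at T2.

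**Figure D3:**
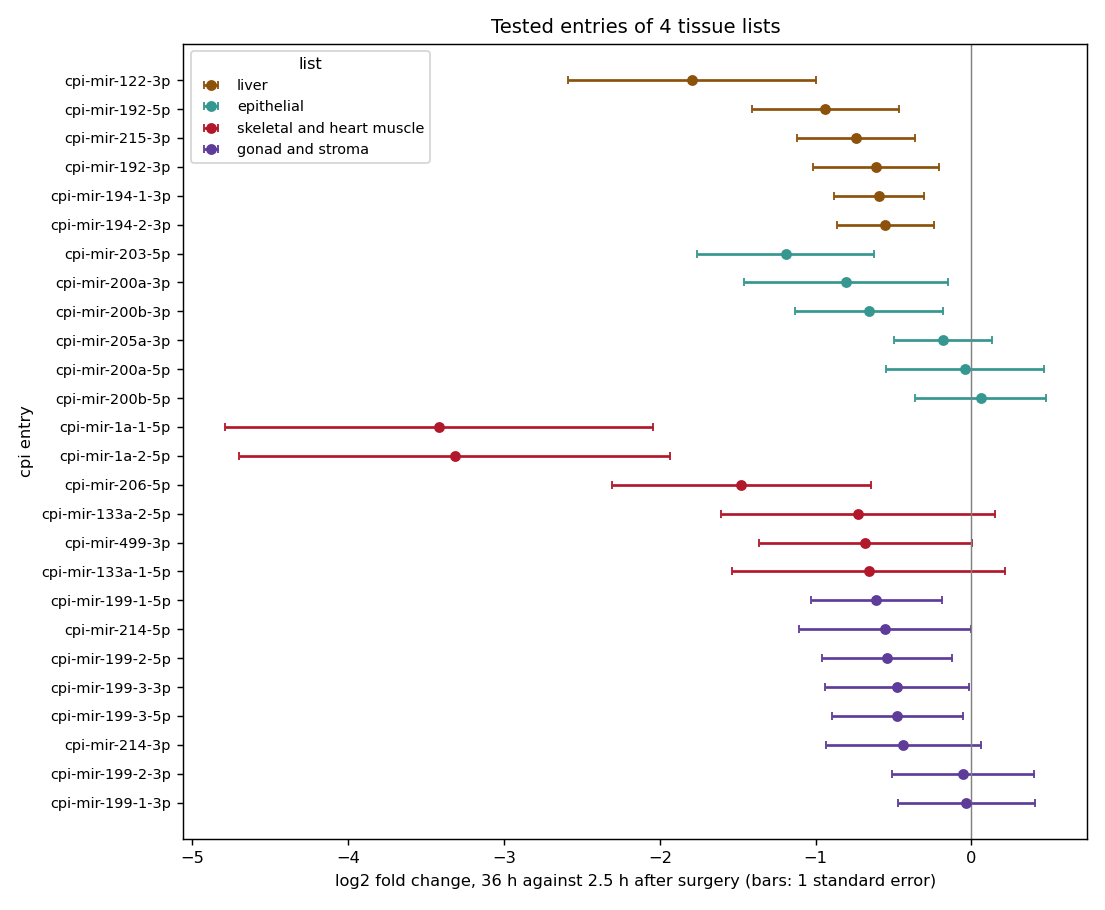
Log2 fold change at 36 h against 2.5 h post-surgery (x axis) of each tested entry of the liver, epithelial, muscle, and gonad and stroma lists, with bars of 1 standard error. The 6 liver entries lie between -1.79 and -0.55, the 6 epithelial ones between -1.19 and 0.06, and the widest errors are those of cpi-mir-1a-1-5p and cpi-mir-1a-2-5p.

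mir-187 is a low-abundance miRNA that in human monocytes lowers the output of inflammatory cytokines. cpi-mir-187-5p had the smallest p of the comparison. Its level was between 66.9 and 486.4 CPM at T1 (median 237) and between 0 and 220 CPM at T2 (median 61.3), with a median of 66.8 at T0. The T1 median was 3.87 times that of T2, and the highest T2 library, t42, was below the T1 median and above 4 of the T1 libraries. Counts were low, 85 over the T2 libraries, and T2 replicates t39 and t54 had 0. In t39 this allows up to 406.7 CPM, above the T1 median. The log2 fold change was -1.62 (SE 0.60, unadjusted p = 0.0116, adjusted p = 0.759 by edgeR's quasi-likelihood test), between -1.98 and -1.38 with each library left out. The 3p arm of the hairpin, which was not tested, had 50 counts at T1 and 18 at T2, with 7 of 8 T2 libraries below the T1 median.

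The striated muscle list (mir-1, mir-133 and mir-206, and mir-208 and mir-499 from myosin genes) had a median of -1.10, the lowest of the lists with more than 1 tested entry. In it 6 of 6 tested entries were negative, against 63.1% of all tested entries, and gene copies are among the 6. T1 replicate t44 carried most of it. In that library the summed level was 137635 CPM, against a T1 median of 5718, and without it the median log2 fold change of the list was -0.31. High sums were also found before surgery, where the range was 573 to 98728 CPM (T0 median 6779), the highest in T0 replicate t49. The sums at T2 ranged from 4417 to 13647 CPM, their median of 7612 was above that of T1, and 2 of 8 T2 libraries were below the T1 median. The fitted values and the median of the sum thus pointed in opposite directions. cpi-mir-206-5p made up 54.9% of that sum. The medians of cpi-mir-206-5p and cpi-mir-499-3p were higher at T2, and those of cpi-mir-1a-1-5p and cpi-mir-1a-2-5p were lower.

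cpi-mir-1a-1-5p ranged from 85.1 to 19760 CPM at T1 (median 427) and from 36.2 to 474 at T2 (median 231). At T0 it ranged from 27.9 to 39166 CPM (median 131). Its log2 fold change of -3.42 (SE 1.37) was -0.89 without T1 replicate t44, and that of cpi-mir-1a-2-5p, -3.32 (SE 1.38), was -0.71. The muscle miRNA mir-206, specific to skeletal muscle in mammals, showed the same library at its top. cpi-mir-206-5p had 82920 CPM in T1 replicate t44 and a T1 median of 2573, and at T2 it ranged from 790 to 8973 CPM with a median of 3982. Its log2 fold change was -1.48 (SE 0.83), although 7 of 8 T2 libraries were above the T1 median, and it was 0.50 without T1 replicate t44. The 2 entries of mir-133a had -0.66 (SE 0.88, cpi-mir-133a-1-5p) and -0.73 (SE 0.88, cpi-mir-133a-2-5p).

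cpi-mir-499-3p, from an intron of a myosin heavy chain gene of slow muscle and heart, had medians of 2316 CPM at T1 (192.05 to 11574) and 2805 CPM at T2 (583 to 4339). Both were above the T0 median of 678 CPM. The log2 fold change between the postoperative time points was -0.68 (SE 0.68), -0.24 without T1 replicate t44 and -0.37 without T1 replicate t38. A fall from 2.5 h to 36 h was thus not seen in the medians of the 2 most abundant muscle entries. For mir-499-3p the paper does report such a fall by RT-qPCR, which was scaled to a spike-in.

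**Figure D4:**
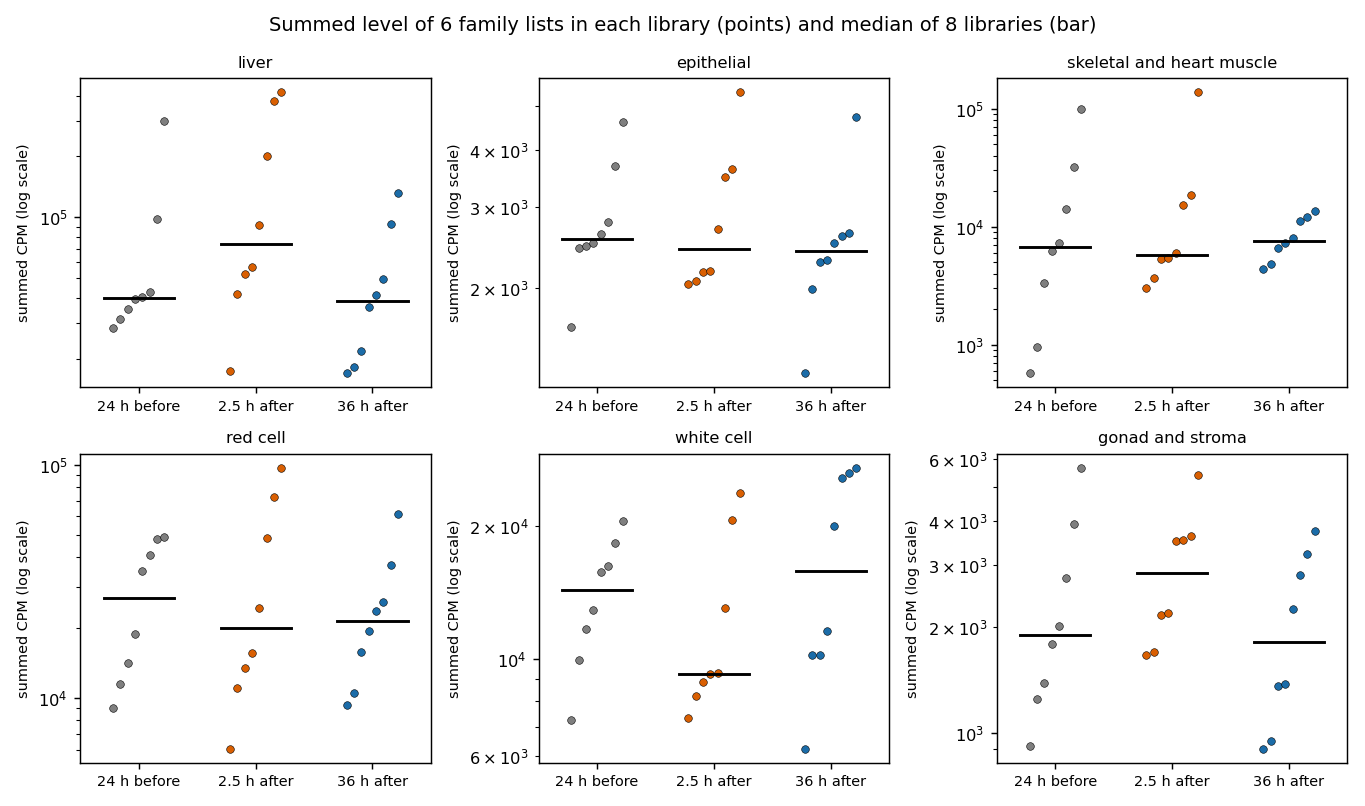
Summed CPM of 6 family lists in each library (points, log axis) 24 h before surgery and 2.5 h or 36 h after it, with the median of 8 libraries as a bar. The liver sum has its highest median at 2.5 h (74221 CPM), the white cell sum its lowest (9243 CPM), and the epithelial medians lie between 2407 and 2565 CPM.

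The gonad and stroma list was included because the ovaries were removed. It holds mir-202 of the gonad, and mir-199 and mir-214 of fibroblasts and other stroma. mir-202, its defining gonadal member, was near the limit of detection at all time points. cpi-mir-202-5p had 11 counts at T0, 20 at T1 and 23 at T2, with 5 of 8 libraries at 0 each time, and a difference was not detectable at this depth. The 8 tested entries were all of mir-199 and mir-214. The gene copies of mir-199 had 1120, 1120 and 1133 counts on their 5p arms over the series, so these are not separate observations. Over the 8 entries the median log2 fold change was -0.48, and 8 of 8 were negative, against 63.1% of all tested entries. Without T1 replicate t44, the library that was also highest in muscle entries, the median was -0.18. The median sum was 1900 CPM before surgery, 2853 CPM at 2.5 h and 1812 CPM at 36 h, with 6 of 8 T2 libraries below the T1 median. cpi-mir-214-5p, the most abundant, had 575 CPM at T1 and 387 at T2 (medians, log2 fold change -0.55, SE 0.55, and -0.16 without T1 replicate t44), and cpi-mir-199-1-5p had 414 and 236 CPM (-0.61, SE 0.42).

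Smooth muscle and vessel wall entries gave no common direction. cpi-mir-143-5p, of the smooth muscle cluster of mir-143 and mir-145, had 2774 CPM at T1 and 2078 at T2 (medians), with a log2 fold change of -0.43 (SE 0.39), between -0.60 and -0.25 with each library left out. cpi-mir-145-3p of the same cluster had 1336 and 1326 CPM and 0.18 (SE 0.61). The levels of both before surgery were lower, with T0 medians of 1080 and 487 CPM. In the endothelium list, cpi-mir-126-5p, from an endothelial gene, had 8892 CPM at T1 (2649 to 22535) and 4823 CPM at T2 (1725 to 13975), with 6 of 8 T2 libraries below the T1 median and a log2 fold change of -0.67 (SE 0.42, and -0.37 without T1 replicate t44). The median over the 4 tested entries of this list was -0.21.

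Among blood cell miRNAs, the medians of the most abundant red cell entry were close to each other. So were those of the most abundant white cell entry, cpi-mir-223-3p, while those of its other arm were further apart. cpi-mir-451-3p, from the most abundant red cell miRNA, had medians of 19928 CPM at T1 (5998 to 96329) and 21226 CPM at T2 (9320 to 60987). Its log2 fold change of -0.51 (SE 0.51) was -0.10 without T1 replicate t50, -0.30 without T1 replicate t53 and -0.82 without T2 replicate t51, and 4 of 8 T2 libraries were below the T1 median. The medians of cpi-mir-451-3p thus lay within the spread of either time point. In the red cell list 2 of 2 tested entries were negative, against 63.1% of all, with a median log2 fold change of -0.48. With each library left out, that list median ranged from -0.82 to -0.10.

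cpi-mir-223-5p, from the main miRNA of myeloid cells, had 212 to 16209 CPM at T1 (median 1667) and 1356 to 16880 CPM at T2 (median 8229), and 7 of 8 T2 libraries were above the T1 median, which 6.06% of tested entries reached at 7 or more. Its log2 fold change was 0.89 (SE 0.65, unadjusted p = 0.184, adjusted p of at least 0.759 as for all entries by edgeR's quasi-likelihood test), 1.55 without T1 replicate t35 and 0.58 without T2 replicate t36. The T0 median, 4097 CPM, lay between those of T1 and T2. cpi-mir-223-3p, the other arm, had 6786 CPM at T1 and 7320 at T2 with a log2 fold change of 0.20 (SE 0.22). The summed white cell level had its lowest median at 2.5 h, with 9243 CPM against 14302 at T0 and 15794 at T2, and 1 of 8 T2 libraries was below the T1 median. Over the 6 tested entries, however, 3 were lower and 3 higher at T2 and the median log2 fold change was -0.08, since the mir-142 entries had smaller or negative values. It was 0.31 in the fit of the 16 postoperative libraries.

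In cpi-mir-142-1-3p all 8 T2 libraries (47.2 to 226 CPM, median 63.6) were above the T1 median of 29.96 CPM, yet T1 libraries reached 340 CPM and the log2 fold change was 0.01 (SE 0.71). cpi-mir-142-2-3p, with medians of 907 and 835 CPM, had -0.17 (SE 0.31). The 2 entries are copies of one miRNA name with different counts, and the more abundant one did not show the difference.

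The inflammation list (mir-21, mir-146 and mir-155, which are induced in activated immune cells) had 4 of 6 tested entries negative, against 63.1% of all, and a median of -0.18. cpi-mir-21-3p had 10596 CPM at T1 and 8299 at T2 (medians, log2 fold change -0.48, SE 0.32, and -0.28 without T1 replicate t44), and 6 of 8 T2 libraries were below the T1 median. cpi-mir-155a-3p had 370 CPM at T1 (66.9 to 2244) and 222.6 at T2 (105 to 813) with -1.19 (SE 0.62), and -0.38 without T1 replicate t53. cpi-mir-210-3p, induced by low oxygen in mammals, had medians of 664 and 1033 CPM, with 6 of 8 T2 libraries above the T1 median and a log2 fold change of 0.39 (SE 0.36), which was 0.24 without T1 replicate t44. Its T0 median was 858 CPM. The other arm, cpi-mir-210-5p, had medians of 104 CPM at T1 and 127 at T2 and a log2 fold change of -0.08 (SE 0.48).

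Outside the tissue lists, mir-204, a miRNA of the eye, kidney and other epithelia in mammals, was lower at 36 h in all 3 of its abundant entries. cpi-mir-204-2-3p ranged from 336 to 1265 CPM at T1 (median 752) and from 136 to 708 CPM at T2 (median 464). The whole T2 range lay below the T1 median, and the T0 median, 667 CPM, was closer to T1. The log2 fold change was -0.83 (SE 0.37, unadjusted p = 0.0345, adjusted p = 0.759 by edgeR's quasi-likelihood test) and stayed between -0.94 and -0.67 with each library left out. cpi-mir-204-1-3p (-0.72, SE 0.38) and cpi-mir-204-3-3p (-0.67, SE 0.34) are gene copies and not further evidence.

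Of the other entries with a p among the 10 smallest, 2 neural ones rested on 1 library. cpi-mir-9-4-3p, of a neural miRNA, had a log2 fold change of 2.18 (SE 0.90), with 5830 CPM in T2 replicate t39 against a T2 median of 186.9, and 0.34 without that library. cpi-mir-219-2-5p, of an oligodendrocyte miRNA, had -1.74 (SE 0.80) with 1976 CPM in T1 replicate t44, and -0.33 without it, and its median was higher at T2 (100.6 CPM) than at T1 (73.1 CPM). In both, a single library set the fitted value. cpi-mir-148b-5p had medians of 857 CPM at T1 and 1511 at T2 and a log2 fold change of 0.78 (SE 0.36), but 0.36 without T2 replicate t36 and -0.08 with counts summed over species. cpi-mir-365-1-3p had medians of 144.9 and 58.6 CPM and -1.43 (SE 0.62), between -1.83 and -1.03 with each library left out. It is the less abundant arm, with 525 counts over the series against 1553 on cpi-mir-365-1-5p. Its levels rest on 285 counts over the T1 libraries and 114 over those at T2.

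Of the 5 entries with the highest mean level, cpi-mir-122-3p is given above, and the other 4 had log2 fold changes between -0.26 and 0.41. cpi-mir-148a-5p, the most abundant, had 192616 CPM at T1 (113086 to 272119) and 146429 at T2 (122209 to 195691), a log2 fold change of -0.26 (SE 0.19) with 7 of 8 T2 libraries below the T1 median. cpi-mir-99a-3p, of a family that shares clusters with let-7, had 148540 and 162411 CPM (medians) and 0.15 (SE 0.23). cpi-mir-425-3p had 106284 CPM at T1 (55417 to 167984) and 152655 at T2 (76753 to 225372). It was above the T1 median in 7 of 8 T2 libraries, with a log2 fold change of 0.41 (SE 0.23, unadjusted p = 0.0837 by edgeR's quasi-likelihood test, and 0.27 without T2 replicate t48), and had 139336 CPM at T0. The ranges of the 2 time points overlapped in each of these entries.

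Families that most cells make had medians near that of all tested entries, of which 63.1% were negative. The let-7 family had 5 of 14 tested entries negative and a median of 0.08, the mir-30 family 2 of 8 and 0.12, and the mir-17 clusters 6 of 10 and -0.01. For the mir-26, mir-101 and mir-103 families it was 7 of 8 and -0.13, for the mir-23, mir-24 and mir-27 clusters 7 of 10 and -0.22, and for the mir-181 family 3 of 7 and 0.00. In the let-7 family, cpi-let-7i-5p was the most abundant entry, with 22270 CPM at T1 and 19478 at T2 (medians, log2 fold change 0.04, SE 0.25). The 14 tested let-7 entries include both arms of cpi-let-7a-4 and of cpi-let-7b, which had the same or nearly the same counts. The mir-15 and mir-16 family had 2 of 4 and -0.25. Larger values of entries of low level rested on single libraries. cpi-mir-16b-3p had -0.97 (SE 0.56) and cpi-mir-30b-3p -0.999 (SE 0.58), which were -0.33 and -0.47 without T1 replicate t53. cpi-mir-181a-3-5p had -1.001 (SE 0.78), and -0.25 without T1 replicate t44.

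Set beside the level before surgery, the entries differed in their course. The comparisons with T0 share libraries with the one between T1 and T2, so that the values are given side by side only. cpi-mir-187-5p had a log2 fold change of 1.31 (SE 0.59) at T1 against T0 and -0.32 (SE 0.61) at T2 against T0, and cpi-mir-122-3p had 1.14 (SE 0.78) and -0.66 (SE 0.78). In both, the value at 36 h was closer to 0 than that at 2.5 h and of the opposite sign. cpi-mir-203-5p had 1.64 (SE 0.58) at T1 and 0.45 (SE 0.59) at T2, and cpi-mir-218-2-3p 1.70 (SE 0.72) and 0.45 (SE 0.74). cpi-mir-92b-5p had 2.32 (SE 0.55) at T1, 2.29 (SE 0.55) at T2 and -0.02 (SE 0.52) between them, so that its level at 36 h stood as far from T0 as that at 2.5 h. cpi-mir-204-2-3p had -0.06 (SE 0.36) at T1 and -0.89 (SE 0.37) at T2, a value near 0 early and a lower one late.

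Of the 8 miRNAs that the study took to RT-qPCR, 6 had a tested cpi entry, and 6 of 6 had a negative log2 fold change from 2.5 h to 36 h, against 63.1% of all tested entries. These were cpi-mir-187-5p, cpi-mir-203-5p, cpi-mir-499-3p, cpi-mir-143-5p, cpi-mir-92b-5p and cpi-mir-218-2-3p, the last with medians of 166 CPM at T1 and 64.3 at T2 and -1.25 (SE 0.71). The value of cpi-mir-92b-5p (-0.02) was 0.74 without T1 replicate t32, and by medians it was higher at T2 (578 CPM) than at T1 (510 CPM), as was cpi-mir-499-3p. The study chose them on these libraries as differing from T0, most of them as higher at T1, so their direction is not independent evidence. cpi-mir-196-2-3p was below the filter on low counts, with medians of 23.8 CPM at T1 and 28.5 at T2. By RT-qPCR the paper did not quantify mir-187-5p, mir-143-5p, mir-218-2-3p and mir-196-2-3p, and it found no significant change of mir-92b-5p. It reports mir-203-5p as lower at 36 h than before surgery. Here cpi-mir-203-5p had a log2 fold change of 0.45 (SE 0.59) at T2 against T0, smaller than its standard error. The RT-qPCR values were scaled to a spike-in, paired by turtle and included turtles that were not sequenced. The levels here are relative and unpaired, so the 2 measures are not like for like.

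The spread between libraries was large next to these differences. This spread includes any lasting differences between turtles, since libraries of the same turtle were not paired. The median SD on the log2(CPM + 1) scale was 0.96 at T1 and 0.98 at T2, and 0.79 at T2 without replicate t39. It was larger at T1 in 90 of 198 entries, and in 121 without that library. In 46 hairpins both arms were tested, and in 27 of them the arms had log2 fold changes of the same sign. The 27 include cpi-let-7a-4, with equal counts on both arms in 24 of 24 libraries, and cpi-let-7b, with equal counts in 19. The agreement of these arms was fixed by the counts and carries no information.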

How the data were processed

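Per the labels and the study's methods, plasma small RNA libraries were made with a NEBNext kit, and the authors clipped adapters with Cutadapt, dropped short reads and aligned the rest with BWA to miRBase precursors of 4 saurian species. They deposited whole-number counts per mature entry, without normalization. The labels name the Qiagen kit for extraction and the paper selects another, so the kit is not settled here. The table holds 3988 rows, 1994 entries each in 2 identical rows, and reads can be counted under several species (3.95 counts per cpi count). No genome coordinates were used. Of 276 pairs of libraries, 0 had identical counts.

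From these counts, 1 row for each of the 528 cpi entries was kept. edgeR 4.0.16 (R 4.3.3) filtered low counts with filterByExpr, scaled by TMM and fitted the 3 time points in one quasi-likelihood model over 24 libraries (common dispersion 0.452), with Benjamini-Hochberg adjustment over 198 entries. Limits for a call were 0.1 (adjusted p) and 1 (size of the log2 fold change). The fit was also run on simulated counts with a common dispersion and no differences between turtles. The outcome is not given here, so it says nothing on how large a change could be missed. Totals were compared by a two-sided exact permutation test over 12870 assignments. CPM are over the tested entries after TMM, and spread and outlying libraries were taken on log2(CPM + 1), a pseudocount of 1. Replicates of a time point are taken as separate turtles from the design text. As the same turtles were bled at each time, the tests treat repeated libraries as independent. DESeq2 1.42.0, limma 3.58.1 and sva 3.50.0 served the alternatives, and Python 3.11.15, numpy 2.4.6, pandas 2.3.3 and matplotlib 3.10.9 the summaries.

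The 24 lists, by the number in the miRNA name, took 306 of the cpi entries and carry no test. Named were entries past the limits, the 10 with the smallest p, all tested liver, epithelial, mir-187 and hypoxia entries, the cpi entries of the 8 RT-qPCR miRNAs (mir-138-1-3p has none), the 5 with the highest mean CPM, and in each other list the one with the highest mean CPM and the one with the smallest p, 59 in all. cpi-mir-26-3-5p, cpi-mir-142-1-3p, cpi-mir-142-2-3p, cpi-mir-145-3p, the mir-133a entries, cpi-mir-202-5p and the other arms and copies were added after their values were seen. Members and lists were chosen with earlier results of these data known.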

Additional observations from a re-analysis of the deposited data

Results flagged for a closer look

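Within a time point, the library at either end of the 8 was tested by its distance to the next one as a share of the whole range, on log2(CPM + 1), against Dixon's 95% critical value. This was done for 168 groups of values, and 19 of them exceeded it. By chance about 1 in 20 groups would. The groups are not independent, since most of the 19 come from T2 replicate t39.

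T2 replicate t39, the library with 5837 cpi counts, was the lowest T2 library for the number of entries detected (ratio 0.546, where the T2 median was 319.5 entries). It was also the lowest for cpi-mir-192-5p (0.704), cpi-mir-200a-5p (0.793), cpi-mir-200b-3p (0.542), cpi-mir-375-5p of pancreatic islets (0.821) and the summed pancreas list (0.834). The same held for cpi-mir-18a-5p (0.662), cpi-mir-16b-3p (0.638), cpi-mir-29a-2-3p (0.781), cpi-mir-30d-3p (0.697), cpi-mir-30b-3p (0.759) and cpi-mir-181a-1-3p (0.619). It was the highest for cpi-mir-9-4-3p (0.571). At 0 counts it allows up to 406.7 CPM, above the T2 median of several of these entries.

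T1 replicate t44 was the highest T1 library for cpi-mir-24-2-5p (0.539) and the lowest for the summed hypoxia list (0.598). T1 replicate t35 was the lowest for cpi-mir-10a-3p (0.719) and for the summed list of mir-10 and mir-196 (0.634), which that entry leads. T1 replicate t32 was the highest for cpi-mir-92b-5p (0.537), and T2 replicate t54, with 0 counts, the lowest for cpi-mir-218-2-3p (0.592).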

How the results depend on the processing

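The count of 0 calls held in the 27 other fits, which were DESeq2, the 16 postoperative libraries alone, DESeq2 size factors, no TMM, no filter, 10 counts in 8 libraries, entries of all species, sums over species, a robust fit, 1 surrogate variable, each T1 or T2 library left out, and T1 replicate t44 and T2 replicate t39 left out together (chosen after seeing the data). With an unadjusted p in place of the adjusted one it was 8. That number at unadjusted p was 16 by DESeq2, 53 with no filter, 25 with entries of all species, and 5 to 12 with a library left out (5 without T2 replicate t33, T1 replicate t44 or T2 replicate t45). Over all species the totals gave p = 0.834 by the exact permutation test. No paired analysis was possible because the labels name no turtle and the library numbers are shared by no 2 time points. Whether libraries numbered in sequence come from 1 turtle is not given in the sources used here.

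Of 1546 alternative values of named entries, 0 passed the limits and 77, in 13 entries, had the opposite sign, and the cause was not tested. For cpi-mir-200a-5p the value was 0.0570 by DESeq2, 0.0915 with 16 libraries, 0.0404 with DESeq2 size factors, 0.0757 without TMM, 0.106 with no filter, 0.0521 summed over species, 0.0737 with a surrogate variable and 0.0335 without t44 and t39. For cpi-mir-210-5p it was 0.0176 by DESeq2, 0.00982 with 16 libraries, 0.0111 with size factors, 0.0121 without TMM and 0.0134 with no filter. For cpi-mir-92b-5p it was 0.0494 with 16 libraries, 0.196 without TMM, 0.112 with no filter, 0.0682 summed over species and 0.000495 without t44 and t39. For cpi-mir-29a-2-3p it was 0.0179 by DESeq2, 0.0675 with 16 libraries, 0.0717 without TMM, 0.0164 summed over species and 0.128 without t44 and t39. cpi-mir-206-5p (-1.48) had 0.55 by DESeq2 and 0.59 without t44 and t39, and without these cpi-mir-200b-5p had -0.0614 and cpi-mir-99b-5p 0.26. Summed over species, cpi-mir-148b-5p had -0.0786 and cpi-mir-16b-3p 0.34, and with a surrogate variable cpi-mir-181a-1-3p had -0.0414. With each library left out, values ranged from -0.26 to 0.40 for cpi-mir-200a-5p, -0.26 to 0.24 for cpi-mir-200b-5p, -0.22 to 0.12 for cpi-mir-210-5p, -0.36 to 0.74 for cpi-mir-92b-5p, -0.0237 to 0.25 for cpi-mir-99b-3p, -1.64 to 0.50 for cpi-mir-206-5p, -0.11 to 0.14 for cpi-let-7i-5p, -0.25 to 0.16 for cpi-mir-29a-2-3p, -1.20 to 0.15 for cpi-mir-99b-5p, -0.12 to 0.15 for cpi-mir-181a-1-3p and -0.29 to 0.0120 for cpi-mir-26-3-3p.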

Other observations

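Neural entries that plasma holds at a high level had similar medians at both time points. cpi-mir-128-1-5p, of a brain miRNA that other tissues also make, had 23358 CPM at T1 (14624 to 33192) and 23927 at T2 (17894 to 35080), with a log2 fold change of 0.12 (SE 0.17). It made up 56.2% of the neural list, whose sums had medians of 40106 CPM at T1 and 47462 at T2. The other neural entries named were low and varied widely.

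Among growth-related clusters, cpi-mir-92a-1-5p had 13095 CPM at T1 and 15035 at T2 (medians, log2 fold change 0.19, SE 0.19), and 1 of 8 T2 libraries was below the T1 median. The same count held for cpi-mir-30d-3p, with 12032 and 14079 CPM (0.21, SE 0.19), and for cpi-mir-16c-3p, with 707 and 1366 CPM (0.43, SE 0.39, and between 0.23 and 0.88 with each library left out). At least 7 of 8 T2 libraries above the T1 median were found in 12 of 198 entries (6.06%). cpi-mir-27a-5p, of the mir-23, mir-24 and mir-27 clusters, had 4942 CPM at T1 and 3102 at T2 (medians, -0.42, SE 0.34, and between -0.69 and -0.26 with each library left out), with 7 of 8 T2 libraries below the T1 median.

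cpi-mir-10a-3p, from a Hox cluster, had 27295 CPM at T1 and 23223 at T2 (medians), a log2 fold change of -0.16 (SE 0.23).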
